A study of Mus musculus with 2 samples.

Results

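The genes described here build and turn over the actin cytoskeleton of dermal fibroblasts, together with vimentin, the main intermediate filament of mesenchymal cells. There were 10 of them among the 31053 genes in the files: Actb, Actg1, Tmsb4x, Tmsb10, Pfn1, Cfl1, Tagln2, Myl6, Myl9 and Vim. They were chosen by symbol, with earlier results of the same libraries known, because of how their levels compared between untreated (UT) and imiquimod (IMQ)-induced skin. Their levels and ratios are therefore given as a description.

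Single-cell RNA sequencing was performed on dermal cells of C57BL/6 mice of the genotype PdgfraDreER-tdTomato, aged 8 weeks. The UT library came from untreated skin, and the IMQ library from skin that had received imiquimod, a Toll-like receptor agonist that induces psoriasiform inflammation, for 7 days. In both groups tamoxifen had turned on tdTomato through Dre-rox recombination in cells expressing Pdgfra, so the label marked the lineage of cells that expressed Pdgfra at induction and not their present state. Live CD45-tdTomato+ cells were sorted after overnight Dispase II digestion and enzymatic dissociation, and the number of mice behind each library was not given in the sources used here. Each group was a single library, so replicates are lacking, tests were not run and the treatment cannot be told apart from any other difference between the libraries. Each interval is an exact 95% interval computed from counts, and it covers counting error alone.

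Actin is held in the cell as monomers (G-actin) and as filaments (F-actin). Thymosins sequester monomers, profilin delivers them to growing filament ends, and cofilin severs old filaments. Myosin II, built from heavy chains with an essential and a regulatory light chain each, slides along filaments and produces tension. In fibroblasts this machinery drives spreading, migration and the contraction of matrix, and free G-actin controls the cofactor MRTF, which acts with the transcription factor SRF on many of the same genes. Vimentin filaments form a separate, flexible network that surrounds the nucleus and carries mechanical load.

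SRF binds a motif called the CArG box, and promoters of the set that held it are shown because this motif is the classical link between actin state and actin gene transcription. Promoters of 300 bases, from 250 bases before to 50 after a start, were taken from RefSeq on build GRCm38.p6 for 9 of the 10 genes, all but Actb, with 12 promoters in all. The box was found in 1 promoter each of Myl9, Myl6 and Actg1, so in 3 of 9 genes. Among all 32851 promoters of this length 1.63% held a box, and among their 27025 genes 488 (1.81%) did. The box was searched as 2 C, 6 bases that are each A or T, and 2 G, which reads as the same motif on both strands. The windows below are 50 bases long, written 5′ to 3′ on the strand of the gene, with the box in capitals.
Myl9, chr2:156775283-156775332, + strand, box 161 bases before the start: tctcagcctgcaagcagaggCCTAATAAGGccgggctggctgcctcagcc
Myl6, chr10:128493030-128493079, - strand, box 50 bases before the start: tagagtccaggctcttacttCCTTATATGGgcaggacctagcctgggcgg
Actg1, chr11:120348556-120348605, - strand, box 90 bases before the start: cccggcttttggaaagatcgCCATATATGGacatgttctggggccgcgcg
The Myl6 box lay before the more downstream of its 2 starts. A match describes letters in a window and is not evidence of binding.

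The UT matrix held 1524079 unique molecular identifiers (UMIs) in 1415 barcodes. The IMQ matrix held 2358303 in 5047 barcodes. Barcodes with 200 to 5000 detected genes and at most 5% mitochondrial UMIs were kept, which left 1045 UT barcodes (73.9%) with a median of 741 UMIs and 571 IMQ barcodes (11.3%) with a median of 659. Most IMQ barcodes fell out, 3621 of them with fewer than 200 genes and 3343 with more than 5% mitochondrial UMIs, categories that overlap. All 7 fibroblast markers were seen in both libraries, with a sum of 80894 counts per 1000000 UMIs (CPM) in UT and 121734 CPM in IMQ. Col1a1, Col1a2, Col3a1 and Lum were higher in IMQ, whereas Dcn (23657 CPM in UT, 17043 CPM in IMQ), Mfap5 and Pdgfra were lower. Gm42418, a gene that overlaps ribosomal RNA sequence, took 1.38% of kept UT UMIs and 14.6% of kept IMQ UMIs. A UMI stands for 1 captured transcript, counted at its 3′ end and not scaled by length, and CPM is a share of all UMIs. The typical gene was lower in IMQ on this scale: over 8129 genes with at least 10 UMIs the log2 ratio of IMQ to UT had a median of -0.61. Ratios are therefore given both in CPM and relative to this median gene.

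The 9 actin-related genes together were lower in IMQ than in UT, whereas Vim was higher. The 9 genes summed to 20874 CPM in UT and 7385 CPM in IMQ, a log2 ratio of -1.50 (-1.55 to -1.45), or -0.89 relative to the median gene. Without Actb their summed level was 15406 CPM against 6584 CPM, a log2 ratio of -1.23 (-1.28 to -1.17). Of the 10 genes, 7 were lower in IMQ by 2-fold or more in CPM, as were 32.0% of all genes compared. None of the 10 was higher by 2-fold or more, as were 3.73% of all genes. Among the 1723 genes with at least 100 UMIs, which leave out Myl9, these shares were 25.2% and 2.61%. Relative to the median gene, Actb and Myl9 were 2-fold or more lower (15.4% of all genes) and Vim was 2-fold or more higher (11.9% of all genes). The members' median log2 ratio was -1.38 in CPM and -0.77 relative to the median gene. Scaling by trimmed mean of M-values (TMM) left 3 members 2-fold or more lower, Actb, Pfn1 and Myl9, against 18.9% of all genes lower and 9.15% higher on that scale.

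**Figure D1:**
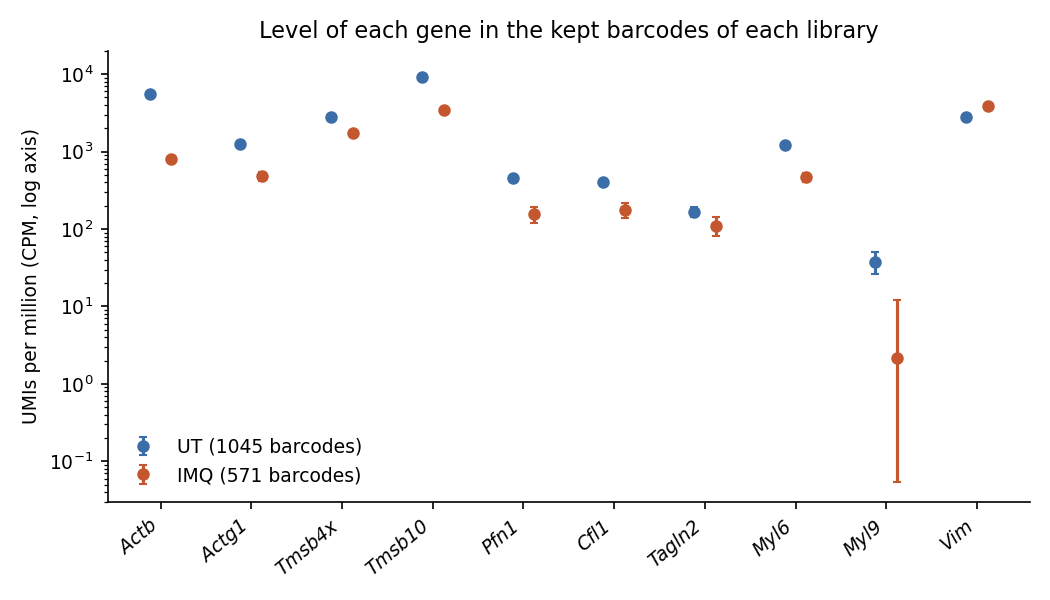
Level of each of the 10 genes in CPM (log axis) over the kept barcodes of the UT library (blue) and the IMQ library (orange), with exact 95% Poisson intervals that cover counting error only. Actb lay at 5467 CPM in UT and 801 CPM in IMQ, and Vim was the only gene of the 10 with the higher point in IMQ.

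Actb (chr5:142903115-142906754, - strand, GRCm38) encodes beta-actin, the main actin of non-muscle cells and a common reference gene. It had 6040 UMIs in UT and 369 in IMQ. Its level was 5467 CPM (5330 to 5607) in UT and 801 CPM (721 to 887) in IMQ. The level in IMQ was 6.83-fold lower, a log2 ratio of -2.77 (-2.93 to -2.62). Relative to the median gene the difference was -2.17 (-2.32 to -2.01), and 5.02% of the genes compared had a lower ratio. Among the 206 genes with at least 1000 UMIs over both libraries, Actb had the second lowest ratio. It stood 15th by level among all genes in UT and 172nd in IMQ. A 60-base stretch near the end of its transcripts also occurs in Lrrc58, which had 135 UMIs in UT and 29 in IMQ.

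Actg1 (chr11:120345690-120348542, - strand) encodes gamma-actin, which differs from beta-actin in a few residues near its start. Its level was 1250 CPM (1185 to 1318) in UT and 482 CPM (420 to 549) in IMQ, a log2 ratio of -1.38 (-1.59 to -1.17). Both cytoplasmic actins were lower in IMQ, Actb by more, and the balance between them was therefore unlike. Of the UMIs of both genes, Actb took 81.4% (80.5 to 82.3) in UT and 62.4% (58.4 to 66.4) in IMQ. In all 5 bins of barcode depth the Actb share was higher in UT, at 76.1% to 86.2% against 59.5% to 69.7% in IMQ. The muscle actins were close to absent, with 5 UMIs of Acta2 in UT and 2 in IMQ and no UMI of Acta1, Actc1 or Actg2.

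Tmsb4x (chrX:167207093-167209315, - strand) and Tmsb10 (chr6:72957347-72958748, - strand) encode thymosin beta-4 and beta-10, small peptides that bind actin monomers. Tmsb10 was the most abundant of the 10 genes in UT and differed more than Tmsb4x between the libraries. Its level was 9079 CPM (8903 to 9259) in UT and 3480 CPM (3312 to 3654) in IMQ, a log2 ratio of -1.38 (-1.46 to -1.31). Tmsb4x had 2812 CPM (2714 to 2913) in UT and 1720 CPM (1603 to 1844) in IMQ, a log2 ratio of -0.71 (-0.82 to -0.60). Relative to the median gene Tmsb4x differed by -0.10, with an interval of -0.22 to 0.01 that includes 0. Tmsb10 took 76.4% (75.6 to 77.1) of the UMIs of both thymosins in UT and 66.9% (65.0 to 68.8) in IMQ. Transcripts of Tmsb10 share 60-base stretches with Gm9844, which had 20 UMIs in UT and 2 in IMQ, and with Gm3788.

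Pfn1 (chr11:70651850-70654644, - strand) encodes profilin 1, and Cfl1 (chr19:5490455-5495201, + strand) cofilin 1, both needed for rapid filament turnover. Pfn1 was at 455 CPM (416 to 497) in UT and 154 CPM (120 to 194) in IMQ, a log2 ratio of -1.56 (-1.94 to -1.20). Cfl1 was at 399 CPM (363 to 438) in UT and 174 CPM (138 to 216) in IMQ, a log2 ratio of -1.20 (-1.56 to -0.86). For the balance of both genes the intervals overlapped, with Cfl1 taking 46.7% (43.5 to 49.96) of their UMIs in UT and 53.0% (44.7 to 61.1) in IMQ. Cfl1 rested on few IMQ barcodes: the 10 with most Cfl1 UMIs held 53.8% of the 80 counted.

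Tagln2 (chr1:172500047-172507380, + strand) encodes transgelin 2, an actin-binding protein of the calponin family. It was at 164 CPM (141 to 190) in UT and 108 CPM (80.5 to 143) in IMQ, a log2 ratio of -0.59 (-1.08 to -0.14). Relative to the median gene its ratio was 0.01, with an interval of -0.47 to 0.47. Its 50 IMQ UMIs were unevenly spread, with 48.0% of them in 10 barcodes.

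Myl6 (chr10:128490860-128494145, - strand) encodes the essential light chain of non-muscle myosin II, and Myl9 (chr2:156775420-156781658, + strand) a regulatory light chain typical of smooth muscle and other contractile cells. Myl6 was at 1209 CPM (1145 to 1276) in UT and 464 CPM (404 to 531) in IMQ, a log2 ratio of -1.38 (-1.60 to -1.17). Myl9 was low in both libraries, with 41 UMIs in UT (37.1 CPM, 26.6 to 50.3) and 1 UMI in IMQ (2.17 CPM, 0.0549 to 12.1). Its log2 ratio of -4.10 has a counting interval of -9.43 to -1.54. Rgs5, Myh11 and Pln, markers of mural and smooth muscle cells, were at 0 in both libraries. The summed level of the 9 mural markers was 153 CPM in UT, with 10 barcodes at 3 or more UMIs, and 62.9 CPM in IMQ, with none, but Des held 114 of the 169 UT UMIs. Without Des the other 8 markers summed to 49.8 CPM in UT and 49.9 CPM in IMQ. Kcnj8 held most of this, with 38 of the 55 UT UMIs and 21 of the 23 IMQ UMIs. Of the others with a UMI, Tagln had 7 in UT and 0 in IMQ, Acta2 5 and 2, Notch3 4 and 0 and Mcam 1 and 0. Without the barcodes holding markers of another type, Myl9 had 41 UMIs in UT and 0 in IMQ.

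Vim (chr2:13573927-13582826, + strand) encodes vimentin. It was at 2780 CPM (2682 to 2880) in UT and 3838 CPM (3661 to 4021) in IMQ, a log2 ratio of 0.47 (0.38 to 0.55), and 1.07 (0.99 to 1.16) relative to the median gene. Its rank by level was 60th in UT and 26th in IMQ, a difference opposite to that of Actb. Of all UMIs of the 10 genes, Vim took 11.8% (11.4 to 12.1) in UT and 34.2% (32.9 to 35.5) in IMQ. The single IMQ barcode with most Vim UMIs held 132 of 1769. Without the barcode holding most Vim UMIs in each library the log2 ratio of Vim was 0.40.

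The share of barcodes with a UMI followed the levels. Actb was detected in 90.4% (88.5 to 92.1) of UT barcodes and 28.02% (24.4 to 31.9) of IMQ barcodes. Each barcode was also thinned at random to 400 UMIs, which left out 73 UT and 33 IMQ barcodes below that depth. At this common depth Actb was detected in 81.6% (79.0 to 84.0) of 972 UT barcodes and 18.4% (15.2 to 21.9) of 538 IMQ barcodes. With or without thinning, Actb was thus detected in most UT barcodes and in a minority of IMQ barcodes. Tmsb10 was detected in 91.9% of thinned UT barcodes and 68.8% of IMQ barcodes, against 95.02% and 83.0% without thinning. For Tmsb4x the thinned shares were 61.4% and 44.98%, and for Myl6 39.5% and 15.1%. Vim was the exception, with 57.8% (54.6 to 60.9) in UT and 66.9% (62.8 to 70.9) in IMQ. The 5 remaining genes were detected in 1.13% to 31.3% of thinned UT barcodes and 0.186% to 12.3% of IMQ barcodes, each lower in IMQ, and Myl9 rested on 11 UT barcodes and 1 IMQ barcode. No cell type that lacks actin or thymosin transcripts was at hand, so a background share from free RNA was not measured for these genes.

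For the summed actin-related genes and for Actb, most barcodes of the libraries lay apart. Per 10000 UMIs of a barcode, the median of the 9 actin-related genes was 219 in UT, with quartiles of 157 and 287. In IMQ it was 66.2, with quartiles of 38.7 and 102. Only 7 of the 571 IMQ barcodes (1.23%) reached the UT median, and 35 UT barcodes (3.35%) lay at or below the IMQ median. For Actb alone the UT median was 46.2 per 10000 UMIs, the IMQ median was 0, and 17 IMQ barcodes (2.98%) reached the UT median. For Vim the distributions overlapped widely, with medians of 21.6 in UT and 26.4 in IMQ, and 340 IMQ barcodes (59.5%) at or above the UT median.

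**Figure D2:**
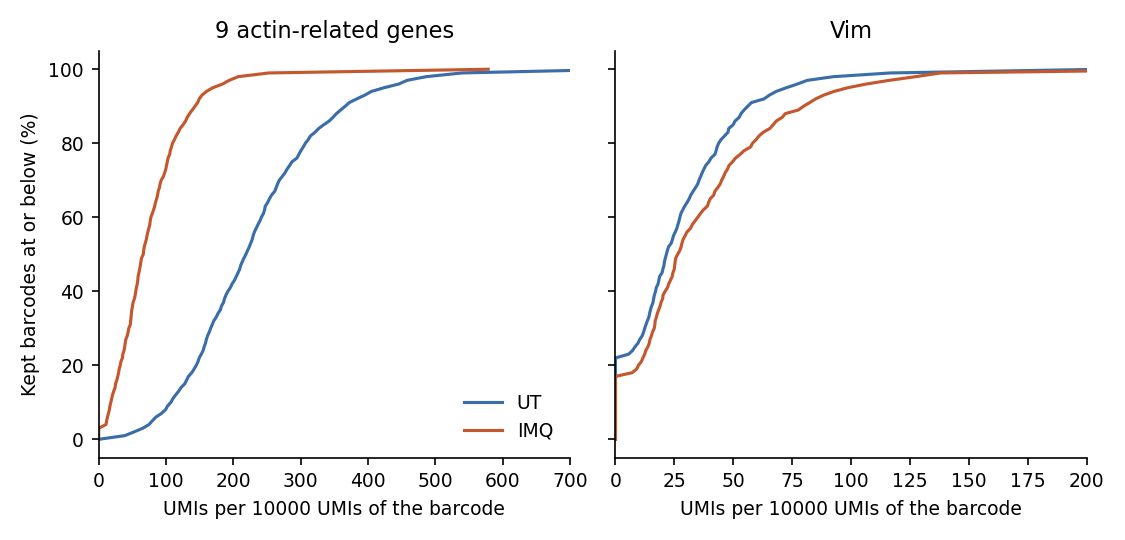
Cumulative share of kept barcodes (y axis, percent) against UMIs of the 9 actin-related genes (left) or Vim (right) per 10000 UMIs of the barcode (x axis), for UT (blue) and IMQ (orange). The curves stand apart on the left, with medians of 219 and 66.2, and run close together on the right, with medians of 21.6 and 26.4.

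The 10 barcodes with most Actb UMIs held 37.9% of the 369 in IMQ and 12.7% of the 6040 in UT. These shares are unlike in base, since 10 barcodes are a larger part of 571 than of 1045. The share also tends to rise as a gene has fewer UMIs, and each of the 10 genes had fewer in IMQ. The share was higher in IMQ for each of the 10 genes but Tmsb4x, so this was not particular to Actb. For Myl9, with 1 IMQ UMI, it was 100% of necessity. For Myl6 it was 17.3% in IMQ and 6.74% in UT, and for Tmsb4x 11.3% and 12.9%. In IMQ, 411 barcodes had no Actb UMI and 60 had at least 2, at median depths of 649 and 754 UMIs. Levels of the other genes in these barcodes were computed over UMIs other than Actb. Of the 60 barcodes, 5 had 2000 or more UMIs and weighed heavily on the pooled levels, so values are given with and without barcodes of that depth. Actg1 was at 351 CPM (287 to 425) in barcodes without Actb and at 1041 CPM (830 to 1288) in those with at least 2 UMIs. Below 2000 UMIs, in 408 and 55 barcodes, it was at 355 CPM (290 to 430) and 748.9 CPM (516 to 1052). For Cfl1 the levels were 105 CPM (71.1 to 148) and 520 CPM (375 to 703), and below 2000 UMIs 107 CPM (72.6 to 152) and 227 CPM (109 to 417), where the intervals overlap. Vim was at 3535 CPM (3325 to 3756) and 5625 CPM (5119 to 6167), but below 2000 UMIs at 3548 CPM (3335 to 3772) and 3495 CPM (2965 to 4093). The higher Vim level beside Actb was thus seen only with the deep barcodes included. The order of Tmsb10 turned as well, from 3519 CPM (3308 to 3739) and 3023 CPM (2656 to 3427) to 3493 CPM (3281 to 3715) and 4607 CPM (3995 to 5286). In UT, 100 barcodes without Actb had Actg1 at 502 CPM (343 to 709), and the 815 with at least 2 Actb UMIs had it at 1353 CPM (1280 to 1429). Below 2000 UMIs the latter level was 1110 CPM (1028 to 1196), in 729 barcodes. The 8 other actin-related genes together were at 15893 CPM (14930 to 16903) in UT barcodes without Actb and at 15448 CPM (15199 to 15700) in those with at least 2 UMIs, or 17730 CPM (17400 to 18065) below 2000 UMIs.

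The ratios were recomputed in bins of barcode depth. In the 4 bins below 2000 UMIs, with 103 to 294 barcodes per library each, the log2 ratio of Actb lay between -3.46 and -2.28. That of Tmsb10 lay between -1.63 and -1.49, that of Actg1 between -1.46 and -1.004, and that of Myl6 between -1.90 and -1.14. Vim was higher in IMQ in each of these bins, by 0.26 to 0.67. In CPM Pfn1, Tagln2 and Tmsb4x were lower in IMQ in each of these bins as well, but so was the median gene, at -0.72 to -0.40. Relative to it Tmsb4x lay between -0.36 and 0.03, Tagln2 between -0.89 and -0.09 and Pfn1 between -2.48 and -0.26. Under 500 UMIs the CPM intervals of Pfn1 (-1.54 to 0.16) and Tagln2 (-1.98 to 0.83) included 0. Cfl1 in CPM lay between -2.34 and -1.66 in these bins, below its pooled ratio of -1.20. The deepest bin, at 2000 UMIs or more, held 87 UT barcodes and only 10 IMQ barcodes. There Actb was at 5691 CPM in UT and 1925 CPM in IMQ, a log2 ratio of -1.56. In the same bin Cfl1 was higher in IMQ, by 0.94 (0.34 to 1.503), and so was Tagln2, by 1.67 (0.69 to 2.59). These 10 barcodes held 92 of the 369 IMQ UMIs of Actb and 33 of the 80 of Cfl1. Without all barcodes of 2000 or more UMIs the ratio of Actb was -3.00, that of Cfl1 -1.87 and that of Tagln2 relative to the median gene was -0.60.

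**Figure D3:**
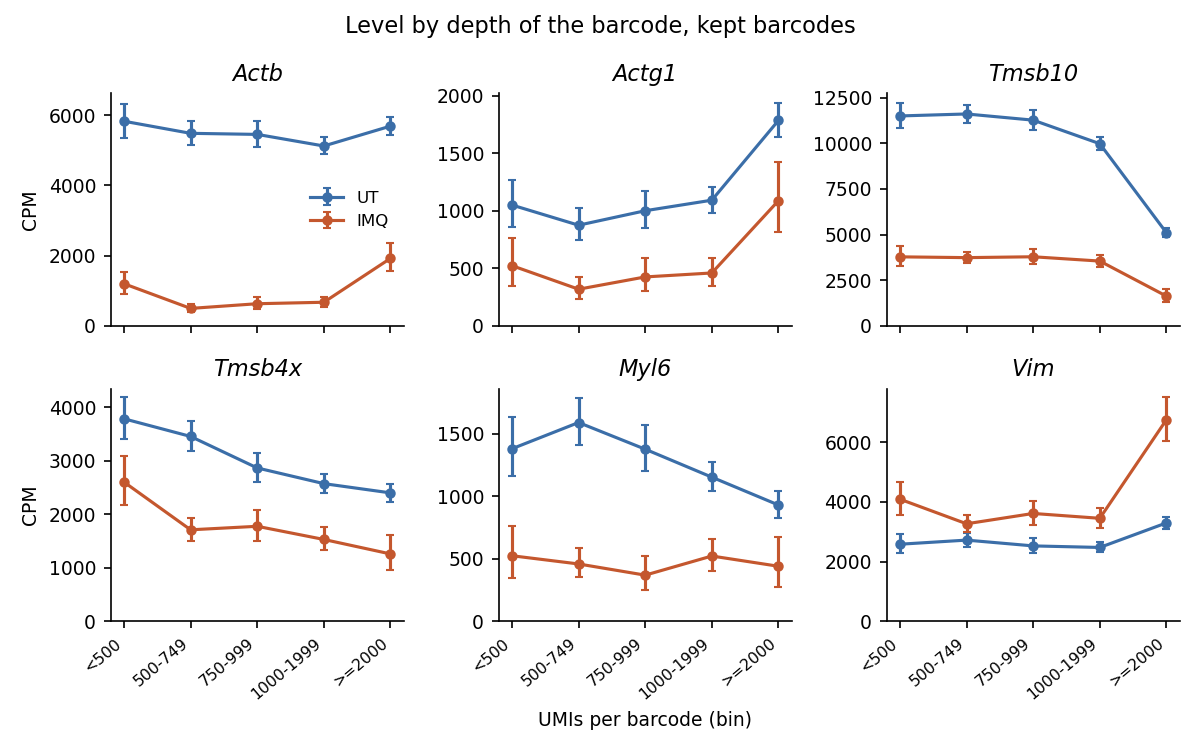
Level (CPM, y axis from 0) of 6 of the genes in 5 bins of UMIs per kept barcode (x axis) in UT (blue) and IMQ (orange), with exact 95% Poisson intervals. Actb, Actg1, Tmsb10, Tmsb4x and Myl6 lay lower in IMQ in every bin and Vim higher, and the last bin holds only 10 IMQ barcodes.

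Because 11.3% of IMQ barcodes passed the filters, the barcodes outside them were examined as well. Over all deposited barcodes 9 of the 10 genes were 2-fold or more lower in IMQ in CPM, as were 47.9% of 9917 genes, whose median log2 ratio was -0.96. None was higher by as much (1.91% of genes). Relative to that median 4 were lower (9.63% of genes) and 1, Vim, was higher (9.87% of genes). The log2 ratio of Actb was -3.18 over all barcodes. That of Vim was 0.08, and 1.04 relative to the median gene. The share of barcodes with a Vim UMI was 72.4% (70.0 to 74.7) in UT and 49.6% (48.2 to 51.0) in IMQ over all barcodes, the opposite order to that in the kept ones, at unthinned median depths of 694 and 355 UMIs. That of Actb was 86.1% and 13.2%. Just inside the mitochondrial limit, at over 2.5 to 5%, Actb had a log2 ratio of -3.15 and Vim 0.55. Just outside, at over 5 to 10%, Actb had -2.42 and Vim 0.44. In barcodes with fewer than 200 genes Actb was at 1694 CPM in UT, from 46 UMIs, and at 271 CPM in IMQ, from 313 UMIs. Above 5000 genes there were 2 UT barcodes and 1 IMQ barcode, holding 616 and 206 Actb UMIs, and there the log2 ratio of Actb was 0.05, with an interval of -0.18 to 0.28 that includes 0.

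**Figure D4:**
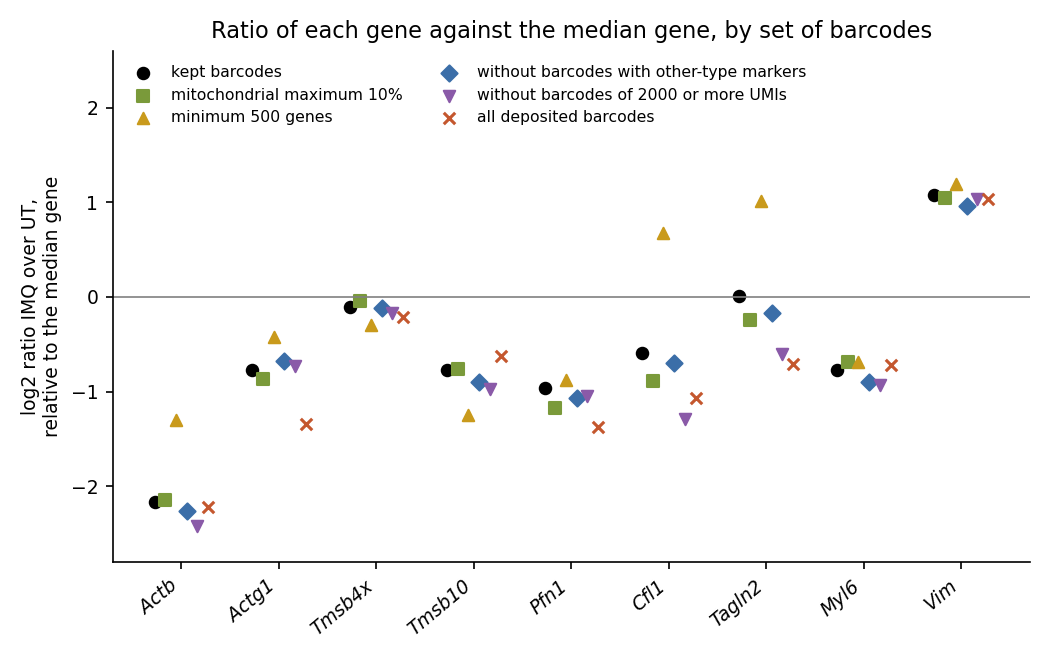
Log2 ratio of IMQ over UT relative to the median gene of the same set (y axis) for 9 genes (x axis) under 6 choices of barcodes, with Myl9 left out because it had 1 UMI in IMQ. Actb lies lowest and Vim highest of the 9 under most choices, Vim near 1 throughout, while Cfl1 and Tagln2 lie above 0 with a minimum of 500 genes, which leaves 37 IMQ barcodes.

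Markers of other cells differed between the libraries. The 8 keratinocyte markers summed to 1762 CPM in UT and 15.2 CPM in IMQ, and in UT 4 barcodes held 3 or more of their UMIs. In those 4 barcodes Actb was at 5184 CPM and Vim at 326 CPM. The 9 myeloid and class II markers summed to 1600 CPM in UT and 202 CPM in IMQ, where Ptprc and Fcer1g were at 0. Barcodes with at least 3 class II UMIs, 8 in UT and 3 in IMQ, were rich in Actb, at 16605 CPM (14168 to 19340) and 10161 CPM (5250 to 17749). They were rich in Tmsb4x as well, at 19221 CPM and 12701 CPM. Endothelial markers were at 40.7 CPM in UT and 30.4 CPM in IMQ. Without the 23 UT and 9 IMQ barcodes with markers of another type, the log2 ratio of Actb was -2.82 and that of Vim 0.40. The 81 IMQ barcodes with a UMI of Cthrc1, a gene of matrix-producing fibroblasts, had Actb at 735 CPM (544 to 972), against 812 CPM (725 to 905) in the other 490. Vim was lower in the barcodes with Cthrc1, at 2716 CPM (2335 to 3142) against 4027 CPM (3832 to 4230). This split was not recomputed without the 10 IMQ barcodes of 2000 or more UMIs, which held 323 Vim UMIs at 6757 CPM.

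Of 72 further genes in 7 lists of actin-related function, SRF and MRTF targets among them, 62 had at least 10 UMIs. Their median log2 ratio was -0.92, with 29 genes 2-fold or more lower, 33 within 2-fold and none higher, beside a median of -0.61 and shares of 32.0% and 3.73% over all genes. Relative to the median gene their median was -0.32, and 15 (24.2%) were lower and 2 (3.23%) higher, beside 15.4% and 11.9% of all genes. These lists were drawn up with earlier results known and were not tested.

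Cross-linkers, tropomyosins and myosins had the lowest medians among the actin lists with more than 2 measured genes. Among 14 measured cross-linking genes the median was -1.34 and 10 were 2-fold or more lower in CPM, beside 32.0% of all genes. Relative to the median gene 6 of them (42.9%) were lower and 1 (7.14%) higher, beside 15.4% and 11.9% of all genes. Marcks, which links actin to the plasma membrane, was at 381 CPM in UT and 69.4 CPM in IMQ, a log2 ratio of -2.46 (-3.02 to -1.94). Actn4, an alpha-actinin, had -1.77 (-2.59 to -1.04) and Flna, filamin A, -1.72 (-2.78 to -0.81). Among 9 tropomyosin and myosin genes the median was -1.26 and 5 were lower, or 4 (44.4%) relative to the median gene. Tpm1, a tropomyosin that lines filaments, was at 157 CPM in UT and 19.5 CPM in IMQ, a log2 ratio of -3.00 (-4.16 to -2.05). Tpm4 had -1.90 (-2.45 to -1.39), whereas Tpm3 had -0.72 (-1.19 to -0.27).

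The Arp2/3 complex, which nucleates branched filaments, had a median ratio like that of the typical gene. The median of its 9 genes was -0.61 and 1 of them, Actr2, was 2-fold or more lower, at -1.27 (-2.06 to -0.56). Arpc1a had 0.12 (-0.39 to 0.60). The 13 genes of membrane linkers and focal adhesions had a median of -0.68 with 4 lower in CPM, beside 32.0% of all genes. Relative to the median gene 1 of them (7.69%) was lower, beside 15.4% of all genes. Lowest in CPM among well-counted genes was Msn, moesin, at -1.41 (-2.24 to -0.66). The 13 genes of monomer binding and severing had a median of -0.94 with 6 lower, or 2 (15.4%) relative to the median gene. Among them Dstn, a relative of cofilin, had -1.33 (-1.62 to -1.05), and Gsn, gelsolin, which was the most abundant of the list at 7244 CPM in UT and 5478 CPM in IMQ, had -0.40 (-0.47 to -0.34).

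Of the other intermediate filaments and lamins only Des and Lmna were measured, and neither had the direction of Vim. Des, desmin of muscle cells, had -2.99 (-4.46 to -1.82) and Lmna, lamin A/C, -1.12 (-1.36 to -0.88).

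Outside actin, 9 tubulin-list genes had a median of -0.88. Of them 4 were 2-fold or more lower in CPM, beside 32.0% of all genes, and 3 (33.3%) relative to the median gene, beside 15.4%. Tuba1a had -1.91 (-2.19 to -1.63). The 8 S100 and annexin genes, calcium-binding proteins of membrane and cytoskeleton, had a median of -1.17. Of them 5 were 2-fold or more lower in CPM, beside 32.0% of all genes, led by S100a4 at -2.41 (-2.59 to -2.24). Relative to the median gene 2 of them (25%) were lower, beside 15.4% of all genes. Of 9 measured genes known as SRF and MRTF targets, a list that shares genes with those above, 5 were lower and the median was -1.15. Relative to the median gene 4 (44.4%) were lower and 1 (11.1%) was higher. Only Tpm1, Cyr61 and Flna of this list had at least 50 UMIs. Srf and Filip1l, both among the 5, had 2 IMQ UMIs each and intervals that include 0. Ctgf went the other way, at 0.55 (-0.68 to 1.71), from 18 UT and 11 IMQ UMIs. Cyr61, a matricellular gene of this list, was at 472 CPM in UT and 124 CPM in IMQ, a log2 ratio of -1.93 (-2.35 to -1.54). A list of 11 common cytosolic genes had a median of -0.30, with none 2-fold or more lower or higher in CPM. Relative to the median gene 2 of them (18.2%) were 2-fold or more higher, beside 11.9% of all genes. They were Eef2 at 1.15 and Tpt1 at 1.09, beside Vim at 1.07. In CPM Gapdh had -0.94 (-1.22 to -0.66) and Tpt1 0.48 (0.43 to 0.54). Of 4 nuclear RNAs, 3 were lower, among them Malat1 at -1.73, and Neat1 was higher at 1.26.

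**Figure D5:**
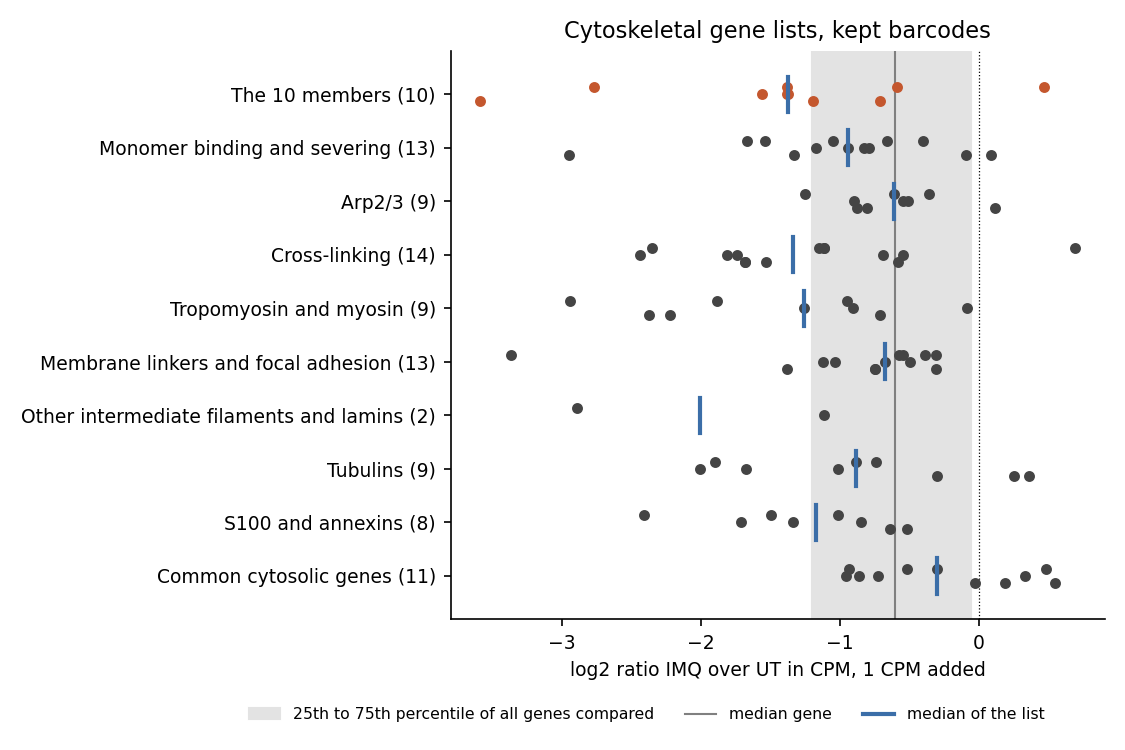
Log2 ratio of IMQ over UT in CPM, with 1 CPM added, for each gene with at least 10 UMIs (points) in the 10 genes described (orange) and 9 related lists (grey), with the number of genes beside each name. The blue bar is the median of the list, the grey line the median of all 8129 genes at -0.61 and the grey band their 25th to 75th percentile, and the common cytosolic genes lie furthest right at a median of -0.30.

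The genes whose level over libraries and depth bins was most like the summed 10 genes were named by Pearson correlation of log2 levels, over 369 candidates with at least 500 UMIs. The 8 points were 4 depth bins in each of the 2 libraries, so they share libraries and mainly reflect the difference between them. S100a6, a calcium-binding protein, had r = 0.996, and Ppp1r14b, an inhibitor of protein phosphatase 1, had 0.993. Crip1, a small LIM-domain protein, had 0.993, Hmgb1, a chromatin protein, 0.991 and Ifitm3, an interferon-inducible membrane protein, 0.989. Their log2 ratios were -1.33, -1.44, -1.70, -1.25 and -0.38. Among the members themselves Actb had r = 0.995 and Vim -0.85. Each member is part of the sum, so these values are not comparable to those of the genes outside it.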

How the data were processed

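The authors deposited, per library, UMI counts per gene and barcode from the 3′ kit, version 3, without normalising them. Counts came, per the file headers, from Cell Ranger 3.0.0 (UT) and 3.1.0 (IMQ), and the submitters' processing notes name mm10. The annotation and whether counting used strand were not given in the sources used here. Fewer IMQ barcodes were in the matrix than the study counted IMQ cells, so the study may have analysed another matrix. The kept UT barcodes are fewer than the study's UT cells too.

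The 10 genes, the gene lists and the marker lists were chosen with earlier results of these data known. Barcodes were kept by the study's limits (200 to 5000 genes, at most 5% mitochondrial UMIs). The study also removed doublets with DoubletFinder. Here doublets were not removed, and Scrublet (scanpy 1.11.5) at 0.8% per 1000 barcodes was an alternative that removed 12 UT and 23 IMQ barcodes. Counts were summed per library and scaled to CPM. Intervals (scipy 1.17.1) are exact Poisson for levels, Clopper-Pearson for shares and conditional binomial for ratios. The ratio method recovered known ratios in simulated library sums drawn from a Poisson, the counting model it assumes. Those sums had no clustering of UMIs in barcodes, so this checks the computation and not the fit of the intervals to these data. Calls of 2-fold used CPM with 1 CPM added and genes with at least 10 UMIs. Alternatives used TMM (edgeR 4.0.16) and median-of-ratios factors (DESeq2 1.42.0) for scaling only. Named genes were the 10 members and, per list, up to 3 highest and 3 lowest with at least 50 UMIs, of which the text gives a part. A further list and 1 cytosolic gene are not reported here. Acta2, Acta1, Actc1, Actg2, Gm9844, Gm3788, Lrrc58, Cthrc1, Srf, Filip1l and Ctgf were named outside that rule. Of 31053 gene identifiers, 30934 were in the GENCODE M21 annotation of GRCm38, the source of gene coordinates. Aldoa occurs in 2 rows and the one with more UMIs was used. The libraries shared 1 barcode, which was not kept in both. Endothelial-type, T-cell, skeletal muscle, Schwann, melanocyte and erythroid marker lists each summed to at most 67.3 CPM.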

Additional observations from a re-analysis of the deposited data

How the results depend on the processing

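No paired analysis was possible because each group had 1 library, and no library could be left out for the same reason. The cause of each change below was not tested. The median log2 ratio of all genes (-0.61) became -0.64 with a mitochondrial maximum of 10%, -0.30 with a minimum of 500 genes, -0.14 with TMM, -0.15 with median-of-ratios scaling, -0.37 in a CPM that leaves out Gm42418, AY036118, mitochondrial and ribosomal protein genes, -0.96 over all deposited barcodes, -0.56 without barcodes with markers of another type, -0.56 with each barcode weighing the same, -0.57 with at least 100 UMIs per gene and -0.72 with at least 1. Among these settings the ratio of the 10 summed genes (-1.08) became -0.67 with 500 genes, -0.59 with TMM, -0.60 with median-of-ratios, -0.82 in the reduced CPM, -1.45 over all barcodes and -1.20 with equal weights, and that of the 9 without Vim (-1.50) became -1.18, -1.02, -1.02, -1.24, -1.85 and -1.60. Relative to the median gene these sums stayed below 0, at -0.64 to -0.37 and -1.04 to -0.87 over 12 settings. A set without barcodes of 2000 or more UMIs and a set of all barcodes of 5000 genes or fewer were chosen after seeing the data, as were the comparison by Actb below 2000 UMIs and the mural markers without Des. They gave -0.58 and -0.99 for the median gene, -1.21 and -1.51 for the 10 genes, and -1.62 and -1.90 for the 9. Members 2-fold or more lower in CPM (7) numbered 4 with 500 genes and 3 with TMM and with median-of-ratios, beside 18.9% and 19.1% of all genes on these 2 scales. Those lower relative to the median gene (2) numbered 4 over all barcodes and below 2000 UMIs, 5 over barcodes of 5000 genes or fewer, 1 with at least 100 UMIs and 7 at a 1.5-fold limit. Those higher (1) numbered 2 with 500 genes and 0 without barcodes of another type, with equal weights and over barcodes of 5000 genes or fewer, where Vim lay just under the limit. Shares of all genes were computed for the main set and all barcodes, and in CPM for TMM, median-of-ratios and at least 100 UMIs. For the other settings they were not computed, so those counts cannot be set against all genes. The share of barcodes with Actb (81.6% and 18.4% at 400 UMIs) was 88.5% and 22.8% at 600 UMIs and 90.4% and 28.02% unthinned. The log2 ratio of Actb ran from -3.43 to -1.59 over 13 settings. Direction changed for Tagln2 relative to the median gene, at -0.24 with 10% mitochondrial, -0.71 over all barcodes, -0.17 without other types, -0.39 with equal weights, -0.60 below 2000 UMIs and -0.48 over barcodes of 5000 genes or fewer. With 500 genes Cfl1 was at 0.38 (0.68 relative) and Tagln2 at 0.72, and over barcodes of 5000 genes or fewer Vim was at -0.015. Myl9 had no IMQ UMI and no ratio without barcodes of another type and without its top barcode in each library.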
